A study of Chlorella sorokiniana with 6 samples.

Results

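The enzymes IspC to IspH carry out the last steps of the methylerythritol phosphate (MEP, or non-mevalonate) pathway, and 8 transcripts of *Chlorella sorokiniana* were assigned to them, of 18310 in the count table. They were chosen by their annotation and not by their values: g16125 and g16126 for IspC, g17151 for IspD, g14585 for IspE, g11740 and g11741 for IspF, g9697 for IspG and g8508 for IspH. RNA was sequenced from 3 cultures under mixotrophic conditions, which received 2% glucose and light of 100 µmol photons, and from 3 cultures under normal conditions, at 10 µmol photons with no glucose added. Both were grown in Bold's Basal Medium at 27 °C with shaking at 30 rpm, and the methods describe 7 days under each condition, with a pre-culture divided between the conditions and the experiment repeated independently. Light and glucose were changed together, so their effects cannot be told apart. The labels number the strain differently for each library, NIES-2168 to NIES-2170 in normal and NIES-2171 to NIES-2173 in mixotrophic libraries, while the paper names 1 strain, NIES-2168.

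The MEP pathway works in the plastid of green algae and plants and makes isopentenyl diphosphate (IPP) and dimethylallyl diphosphate (DMAPP), the building units of carotenoids, the phytol tail of chlorophyll, tocopherols and plastoquinone. It starts when DOXP synthase (Dxs) joins pyruvate with glyceraldehyde phosphate. IspC, also named DXR, then rearranges and reduces the product to MEP, IspD couples MEP to a cytidine nucleotide, IspE adds a phosphate, IspF closes the ring and releases the nucleotide, and the iron-sulphur enzymes IspG and IspH reduce the ring product to IPP and DMAPP. In many green algae it is the main or the only route to these units, because steps of the cytosolic mevalonate pathway have been lost.

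Total counts were 3527337 to 4444858 in mixotrophic and 2535461 to 3560221 in normal libraries. Levels are given as CPM, the counts of a transcript relative to the scaled library total and thus a share of all RNA counted, so fewer transcripts per cell and fewer cells using a gene cannot be told apart. The conditions were compared, mixotrophic over normal, with the quasi-likelihood test of edgeR across all 12318 transcripts that passed the filter on low counts, and a transcript was called at a Benjamini-Hochberg adjusted p under 0.05. All 8 MEP transcripts passed the filter, and the lowest count of any of them in any library was 15. Replicate 1 of both conditions stood apart. Over all transcripts tested, mixotrophic replicate 1 differed from mixotrophic replicates 2 and 3 by a root mean square of 0.905 and 1.02 on the log2 scale, against 0.287 between those 2, and the distance of normal replicate 1 to the other normal libraries was 1.40 and 1.29, against 0.361 between those. Both replicate 1 libraries differed from each other by 0.906. Both were also low in a group of 878 transcripts, which held 31 of 45 phenylpropanoid transcripts, 7 of 32 light-harvesting transcripts and 0 of the 8 MEP transcripts. The paper's supplementary expression data list replicates 2 and 3 only. The fold change of each MEP transcript is therefore given over all 6 libraries and over these 4. The common coefficient of variation was 35.5% in the fit of all 6 libraries and 4.64% in that of the 4. Smaller adjusted p-values over the 4 come with this lower spread and fewer libraries, and do not by themselves mean stronger evidence. Summed light-harvesting transcripts, which mark a cell with a working plastid, held 14640 to 16289 CPM in mixotrophic and 9052 to 10841 CPM in normal libraries.

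IspD was upregulated under mixotrophic conditions by 3.61-fold, and IspG by 1.33-fold, while the other 6 MEP transcripts did not pass the test over all 6 libraries. Thus 2 of 8 transcripts were called higher and 0 lower by edgeR, when 13.3% of all transcripts tested were called higher and 15.2% lower. None of the 8 was lower at an unadjusted p under 0.05 or by DESeq2 either, which called 16.6% of all transcripts lower. With a log2 fold change of at least 1 required as well, 1 of the 8 was called higher over all 6 libraries and 1 over the 4, where 5.99% of all transcripts were called over the 6 and 11.7% over the 4. The median log2 fold change of the 8 was 0.26, against -0.04 over all transcripts tested. Over the 4 libraries 3 of the 8 were called higher, with IspC g16125 as the third, and 0 lower, when 28.6% of all transcripts were called higher and 29.0% lower. The median of the 8 was then 0.25, against -0.02 over all transcripts. Together the 8 transcripts held 896 to 955 CPM in mixotrophic and 678 to 737 CPM in normal libraries, and these ranges did not overlap. IspG made up 57.3% to 60.0% of the counts in this sum. Without IspG the sum was 367 to 382 CPM in mixotrophic and 286 to 313 CPM in normal libraries. Among single transcripts, 24.4% of all tested had every mixotrophic library above every normal one. The sum does not show a rise of each enzyme.

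**Figure D1:**
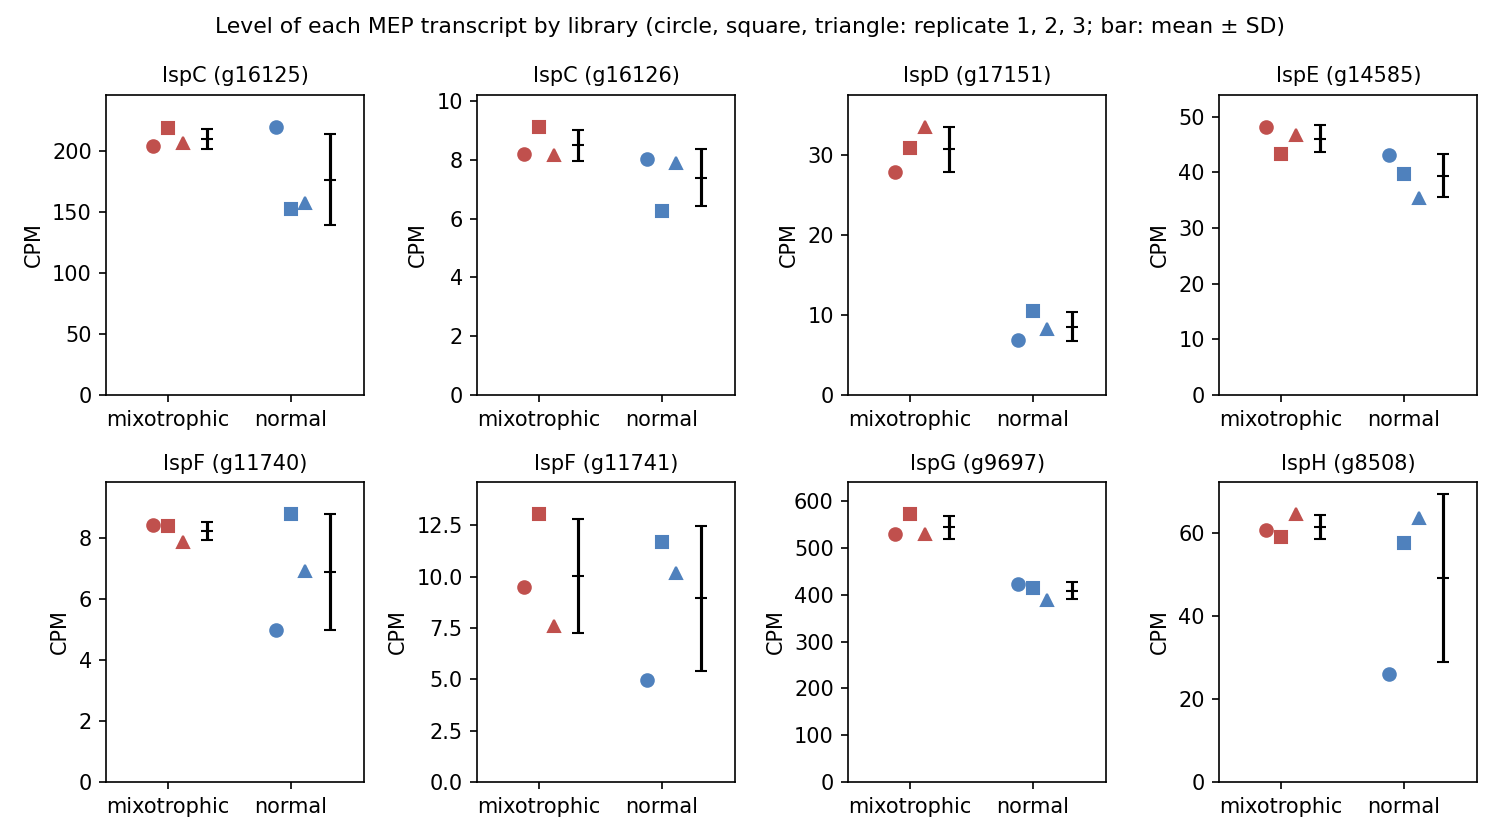
Level in CPM of each of the 8 MEP transcripts in the 3 mixotrophic (red) and 3 normal (blue) libraries, with the mean and SD beside them. IspD separates the conditions most widely, at 27.8 to 33.4 CPM in mixotrophic and 6.91 to 10.4 CPM in normal libraries, and normal replicate 1 (circle) is apart from the other normal libraries in IspC g16125 and in IspH.

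IspD g17151, the enzyme that makes the first nucleotide-bound intermediate, had 129, 125 and 119 counts in mixotrophic replicates 1 to 3 and 25 counts in each of the 3 normal libraries. After scaling these were 27.8, 30.8 and 33.4 CPM in mixotrophic replicates 1 to 3, against 6.91, 10.4 and 8.21 CPM in normal replicates 1 to 3. Every mixotrophic library was above every normal library, and the lowest mixotrophic level was 2.67 times the highest normal one. The means were 30.7 ± 2.79 CPM in mixotrophic and 8.52 ± 1.78 CPM in normal cultures (SD, n = 3 each). The log2 fold change was 1.85 with a standard error of 0.20 (edgeR adjusted p = 0.00265). With the replicate number as a block it was 1.86 (edgeR adjusted p = 0.0121), and over the 4 libraries 1.77 with a standard error of 0.22 (edgeR adjusted p = 4.42e-08).

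For single libraries, the exact 95% Poisson interval of IspD reached down to 23.2 CPM in mixotrophic replicate 1 and up to 15.4 CPM in normal replicate 2, so no interval of one condition met one of the other. These intervals cover counting error only. IspD was the transcript with the fewest counts among the single-transcript enzymes, so its fold change is known less precisely than its separation.

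IspG g9697 makes hydroxymethylbutenyl diphosphate from the ring intermediate and held 57.3% to 60.0% of all counts on the 8 transcripts in the 6 libraries. It stood at 529, 573 and 531 CPM in mixotrophic replicates 1 to 3, against 424, 414 and 388 CPM in normal replicates 1 to 3. The 3 mixotrophic libraries were above the 3 normal ones, with a gap of 1.25-fold between the nearest. Its means were 544 ± 24.6 CPM in mixotrophic and 409 ± 18.6 CPM in normal cultures (SD, n = 3 each), a log2 fold change of 0.41 with a standard error of 0.086 (edgeR adjusted p = 0.0182). The increase was small, and by edgeR close to the threshold. DESeq2 over all 6 libraries also gave a log2 fold change of 0.41 (DESeq2 adjusted p = 0.000104). With the replicate number as a block the log2 fold change was again 0.41, but it no longer passed (edgeR adjusted p = 0.0839), so that 1 of the 8 transcripts was called higher with the block, when 9.97% of all transcripts were. Without any 1 of the libraries other than normal replicate 1, the edgeR adjusted p was between 0.0518 and 0.104 at log2 fold changes of 0.36 to 0.43. Without normal replicate 1 it was 0.000814, and over the 4 libraries the log2 fold change was 0.44 with a standard error of 0.061 (edgeR adjusted p = 4.16e-07).

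IspC g16125, the reductoisomerase of the first committed step, had 204, 218 and 206 CPM in mixotrophic replicates 1 to 3, against 219, 152 and 157 CPM in normal replicates 1 to 3. Normal replicate 1 was above all 3 mixotrophic libraries, while the other normal libraries were below them. The log2 fold change was 0.25 with a standard error of 0.17 over all 6 libraries (edgeR adjusted p = 0.317). It was 0.40 without normal replicate 1 (edgeR adjusted p = 0.0013) and 0.43 with a standard error of 0.076 over the 4 libraries (edgeR adjusted p = 1.43e-05). The call for IspC therefore rests on whether that 1 library is used. The coefficient of variation was 3.73% in mixotrophic and 21.2% in normal libraries, where counting alone would give 3.42% in mixotrophic and 4.28% in normal libraries.

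IspH g8508, which releases IPP and DMAPP, had 60.9, 59.1 and 64.6 CPM in mixotrophic replicates 1 to 3, against 26.0, 57.6 and 63.7 CPM in normal replicates 1 to 3. Here normal replicate 1 was the low one, and the other normal libraries lay among or just below the mixotrophic ones. The log2 fold change was 0.33 with a standard error of 0.33 over all 6 libraries (edgeR adjusted p = 0.518). Over the 4 libraries it was -0.0027 with a standard error of 0.12 (edgeR adjusted p = 0.986). The coefficient of variation of IspH was 4.59% in mixotrophic and 41.3% in normal libraries, and counting alone would give 6.32% in mixotrophic and 8.39% in normal libraries. Between IspC and IspH, normal replicate 1 thus departed from the other normal libraries in opposite directions.

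**Figure D2:**
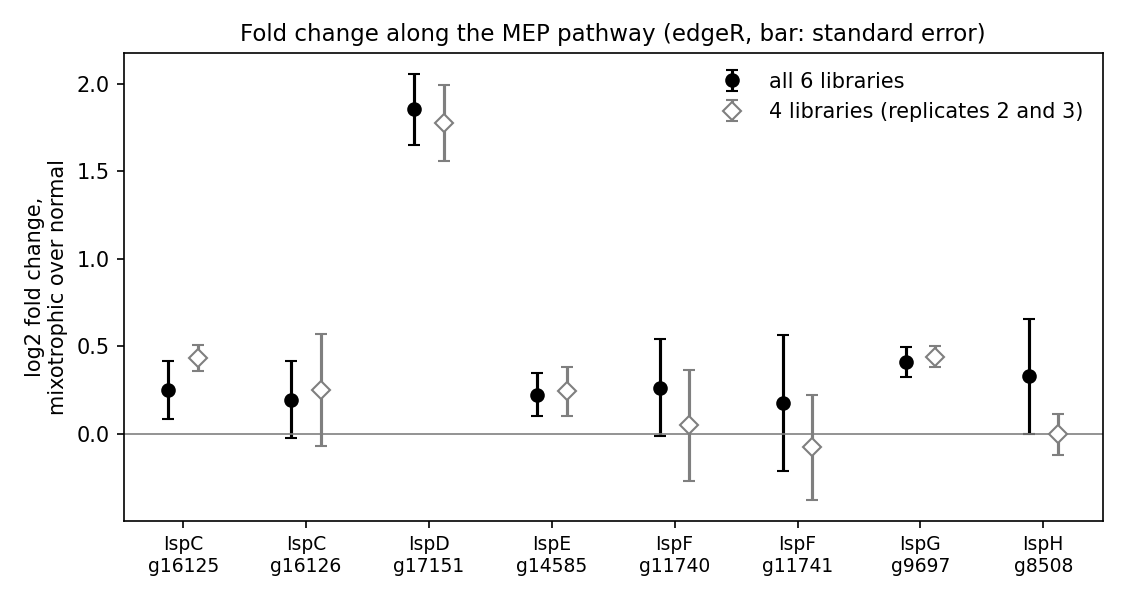
Log2 fold change (mixotrophic over normal) of each MEP transcript in pathway order, with its standard error, from all 6 libraries (filled circles) and from replicates 2 and 3 (open diamonds), by edgeR. IspD lies at 1.85 and 1.77, and all other transcripts lie between -0.08 and 0.44 in both fits.

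IspE g14585, the kinase between IspD and IspF, had 48.1, 43.3 and 46.6 CPM in mixotrophic replicates 1 to 3, against 43.1, 39.7 and 35.5 CPM in normal replicates 1 to 3. The conditions did not overlap, but the nearest libraries differed by a factor of only 1.01, and the log2 fold change of 0.22 with a standard error of 0.12 did not pass (edgeR adjusted p = 0.23). Over the 4 libraries it was 0.24 with a standard error of 0.14 (edgeR adjusted p = 0.142). In all, 4 of the 8 transcripts (IspC g16126, IspD, IspE and IspG) had every mixotrophic library above every normal one, which was the case for 24.4% of all transcripts tested.

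IspC and IspF were each represented by a pair of transcripts from 1 assembly component, among which reads may have been divided. The second IspC transcript, g16126, had 8.20, 9.11 and 8.15 CPM in mixotrophic replicates 1 to 3, against 8.01, 6.26 and 7.88 CPM in normal replicates 1 to 3. Its log2 fold change was 0.20 with a standard error of 0.22 over all 6 libraries (edgeR adjusted p = 0.594) and 0.25 with a standard error of 0.32 over the 4 (edgeR adjusted p = 0.525). The main transcript g16125 held 96.0% to 96.2% of the IspC counts in mixotrophic and 95.2% to 96.5% in normal libraries. The difference of the mean shares was 0.194 percentage points with a pooled SD of 0.452 (exact permutation test, two-sided, p = 0.8, where 3 against 3 cannot go below 0.1). Counts are not corrected for length, so the share does not say which form was more abundant.

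IspF, the cyclase, was the enzyme with the fewest counts in mixotrophic libraries, at 55 to 87 counts for both transcripts together, against 36 to 52 in normal libraries. For g11740 the levels were 8.42, 8.37 and 7.87 CPM in mixotrophic replicates 1 to 3, against 4.97, 8.77 and 6.90 CPM in normal replicates 1 to 3. For g11741 they were 9.50, 13.0 and 7.59 CPM in mixotrophic replicates 1 to 3, against 4.97, 11.7 and 10.2 CPM in normal replicates 1 to 3. The conditions overlapped in both, and normal replicate 1 held the lowest level of each. The log2 fold changes were 0.26 with a standard error of 0.28 and 0.18 with a standard error of 0.39 over all 6 libraries (edgeR adjusted p = 0.539 and 0.806), and 0.05 and -0.08 over the 4 (edgeR adjusted p = 0.909 and 0.844). The pair had 27 to 53 counts per transcript in mixotrophic and 18 to 31 in normal libraries. The spread of g11741 was wider than counting alone gives, with a coefficient of variation of 27.6% in mixotrophic and 39.4% in normal libraries, where counting would give 15.6% in mixotrophic and 19.7% in normal libraries. The share of g11740 in the pair was 39.1% to 50.9% in mixotrophic and 40.4% to 50.0% in normal libraries (exact permutation test, two-sided, p = 0.9).

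**Figure D3:**
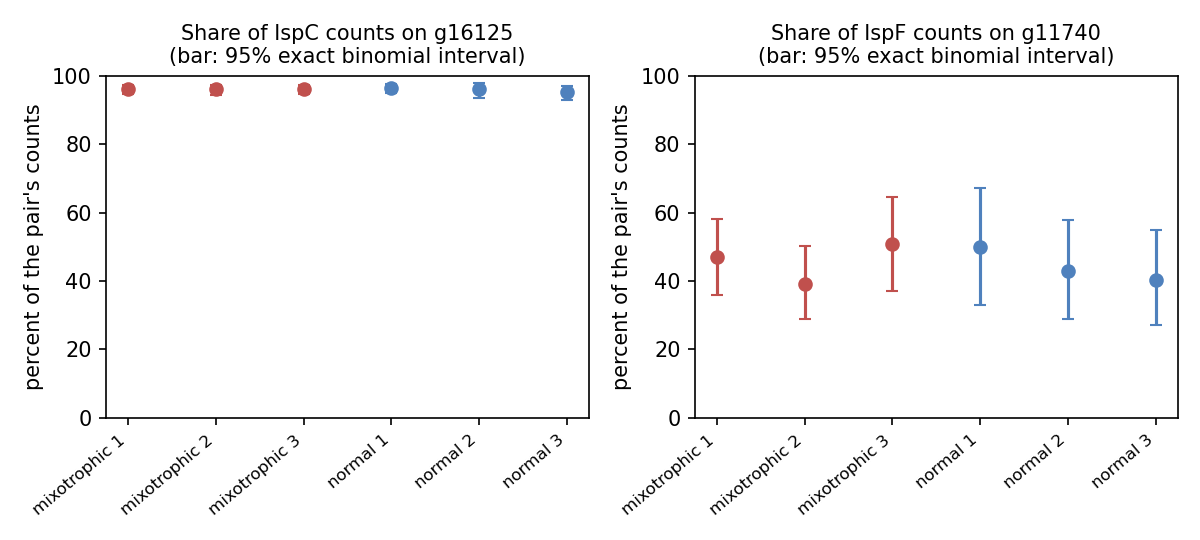
Percent of the counts of the IspC pair that fell on g16125 (left) and of the IspF pair that fell on g11740 (right) in each library, with exact 95% binomial intervals, which cover counting error only. The IspC share lies between 95.2% and 96.5% in all 6 libraries, and the IspF intervals all overlap each other.

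With counts summed per assembly component, the 8 transcripts became 6 units. IspD then had a log2 fold change of 1.79 with a standard error of 0.21 (edgeR adjusted p = 0.00339). IspG had 0.36 with a standard error of 0.081 (edgeR adjusted p = 0.0223). IspC then had a log2 fold change of 0.19 with a standard error of 0.15 (edgeR adjusted p = 0.369), and IspF of 0.15 with a standard error of 0.32 (edgeR adjusted p = 0.79).

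Levels were next set against each other within a library, where scaling has no part. The log2 ratio of IspD counts to the summed counts of the other 7 transcripts was -4.96, -4.91 and -4.70 in mixotrophic replicates 1 to 3, against -6.72, -6.05 and -6.35 in normal replicates 1 to 3. All 3 mixotrophic ratios were above all normal ones, with a difference of the means of 1.52 and a pooled SD of 0.26, or 2.86-fold (exact permutation test, two-sided, p = 0.1, the smallest that 3 against 3 allows). IspD made up 3.11% to 3.69% of the counts on the 8 transcripts in mixotrophic and 0.937% to 1.49% in normal libraries. The difference was similar against each enzyme, from 1.44 on the log2 scale against IspH to 1.64 against IspE. IspC held 23.6% to 23.8% of these counts in mixotrophic and 22.6% to 30.8% in normal libraries, and IspG 58.7% to 60.0% in mixotrophic and 57.3% to 59.1% in normal libraries. Lengths of transcripts were not used here, so these shares describe reads and give no order of abundance among the enzymes.

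**Figure D4:**
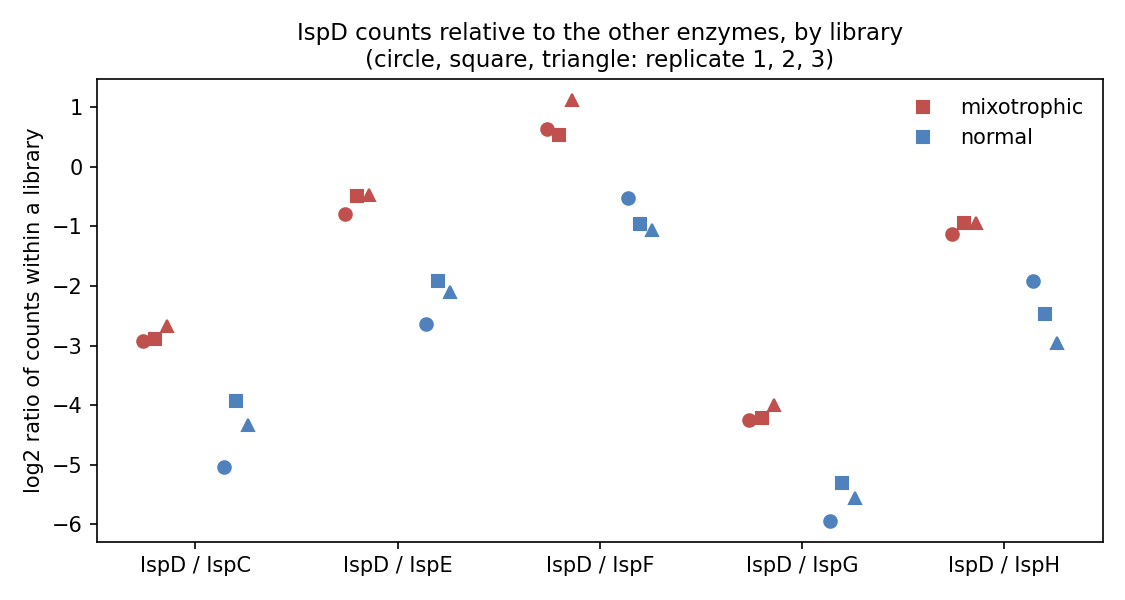
Log2 ratio of IspD counts to the counts of each other MEP enzyme within each library, with transcripts of 1 enzyme summed, for mixotrophic (red) and normal (blue) libraries. For every enzyme the 3 mixotrophic ratios lie above the 3 normal ones, with mean differences between 1.44 and 1.64.

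Across the 8 transcripts, the mixotrophic libraries differed from each other by a root mean square of 0.149 to 0.282 on the log2 scale. Normal replicates 2 and 3 differed by 0.223, while normal replicate 1 differed from them by 0.696 and 0.623. The spread of the MEP transcripts within the normal condition thus came mainly with 1 library.

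Profiles over the 6 libraries, each centred on its mean, were compared by their root mean square difference. Within the pathway, IspE and IspG were the closest to each other among transcripts of different enzymes, at a root mean square difference of 0.131 on the log2 scale. Among 4746 transcripts of other components that had an assigned class and averaged no less than 3 in log2 CPM, the one most like IspD was g10550, annotated as N-carbamoylputrescine amidohydrolase of polyamine synthesis, at a root mean square difference of 0.0742. It had 131, 134 and 133 CPM in mixotrophic replicates 1 to 3, against 31.5, 45.5 and 38.8 CPM in normal replicates 1 to 3. The next were g3481, related to glyoxal oxidase, at 0.133 and g18301, a translation elongation factor of the EF-Tu family, at 0.133. The profile most like that of IspG was g14874 of the carotenoid class, an oxidoreductase with a difference of 0.0306. That of IspC g16125 was closest to g9738 of histidine synthesis (0.0358), and that of IspH to the aldehyde dehydrogenase g9834 (0.0511), which also was low in normal replicate 1, at 107 CPM against 229 and 238 CPM in normal replicates 2 and 3. For the remaining members the closest were g11471 for IspC g16126, g7047 for IspE, g8487 for IspF g11740 and g14323 for IspF g11741, at 0.0490 to 0.0930. These likenesses describe 6 libraries in 2 conditions.

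Upstream of IspC, the 5 Dxs transcripts (g10694, g10696, g10698, g10700 and g10702) had no count in any library, and the other 5 transcripts of their component had none either. For counting error alone, a count of 0 allows up to 3 counts per transcript, or 0.648 to 0.843 CPM in mixotrophic and 0.829 to 1.25 CPM in normal libraries. Reads that fit several transcripts equally may have been left out of counting, and this limit does not cover them. It therefore does not bound the level of Dxs RNA. The 5 came from 1 assembly component. The entry step of the pathway could therefore not be compared. In the non-mevalonate class outside the 8 members and Dxs, the geranylgeranyl diphosphate synthase g320, which builds the precursor of carotenoids and phytol, and 3 geranylgeranyl transferase transcripts also had no counts. Unlike for Dxs, other transcripts of their assembly components were counted. Over all libraries, g319 beside g320 had 633 counts. Beside the transferases, g9121, g9123 and g9125 had 223, 11 and 295 counts.

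Downstream, IPP isomerase balances the 2 end products of IspH. Of the transcripts classed as this enzyme, g3290 was downregulated, with 155, 160 and 166 CPM in mixotrophic replicates 1 to 3, against 201, 247 and 238 CPM in normal replicates 1 to 3 (log2 fold change of -0.51 ± 0.12, SE, edgeR adjusted p = 0.023). With the replicate number as a block over all 6 libraries the call was lost (edgeR adjusted p = 0.0671). It was kept over the 4 libraries, at a log2 fold change of -0.60 (edgeR adjusted p = 2.61e-08), and by DESeq2 over all 6 (DESeq2 adjusted p = 0.00318). The assembly component of g3290 yielded 3 transcripts, among which reads may have been divided. The isomerase transcript g3291, the only one listed for this enzyme in the paper's supplement, had a log2 fold change of -0.25 with a standard error of 0.20 (edgeR adjusted p = 0.405). Geranylgeranyl reductase g3292, which makes the phytol tail for chlorophyll, had 607, 633 and 650 CPM in mixotrophic replicates 1 to 3, against 598, 575 and 526 CPM in normal replicates 1 to 3. It had a log2 fold change of 0.15 with a standard error of 0.087 (edgeR adjusted p = 0.241) and was called over the 4 libraries only (0.20, edgeR adjusted p = 0.00287).

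The 6 transcripts of the mevalonate class included 1 called higher and 3 lower, with a median log2 fold change of -0.38, when 13.3% of all transcripts were called higher and 15.2% lower. IPP isomerase g3290, which lost its call with the block over all 6 libraries, is 1 of the 3. HMG-CoA synthase g6367, an early enzyme of the cytosolic route, was downregulated, at 42.7, 41.1 and 37.6 CPM in mixotrophic replicates 1 to 3, against 185, 168 and 158 CPM in normal replicates 1 to 3. Its log2 fold change was -2.07 with a standard error of 0.12 (edgeR adjusted p = 0.000559). Farnesyl diphosphate synthase g1721, which joins the units into the precursor of sterols, was upregulated, at 134, 134 and 136 CPM in mixotrophic replicates 1 to 3, against 79.3, 68.5 and 70.3 CPM in normal replicates 1 to 3 (log2 fold change of 0.89 ± 0.10, SE, edgeR adjusted p = 0.00324). Of the 2 transcripts classed as geranyl diphosphate synthase, g15085, whose description names solanesyl diphosphate synthase, was lower by a log2 fold change of -0.70 (edgeR adjusted p = 0.0139), and g10785 had 0.44 (edgeR adjusted p = 0.153). So IspD and HMG-CoA synthase moved in opposite directions, and the later enzymes did not share 1 direction. The paper reports that homologs of the mevalonate enzymes from HMG-CoA reductase to diphosphomevalonate decarboxylase were absent from this transcriptome. The other transcripts of the class are isomerase and prenyl diphosphate synthase steps, which come after IPP. HMG-CoA synthase therefore does not stand for a complete mevalonate route here.

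**Figure D5:**
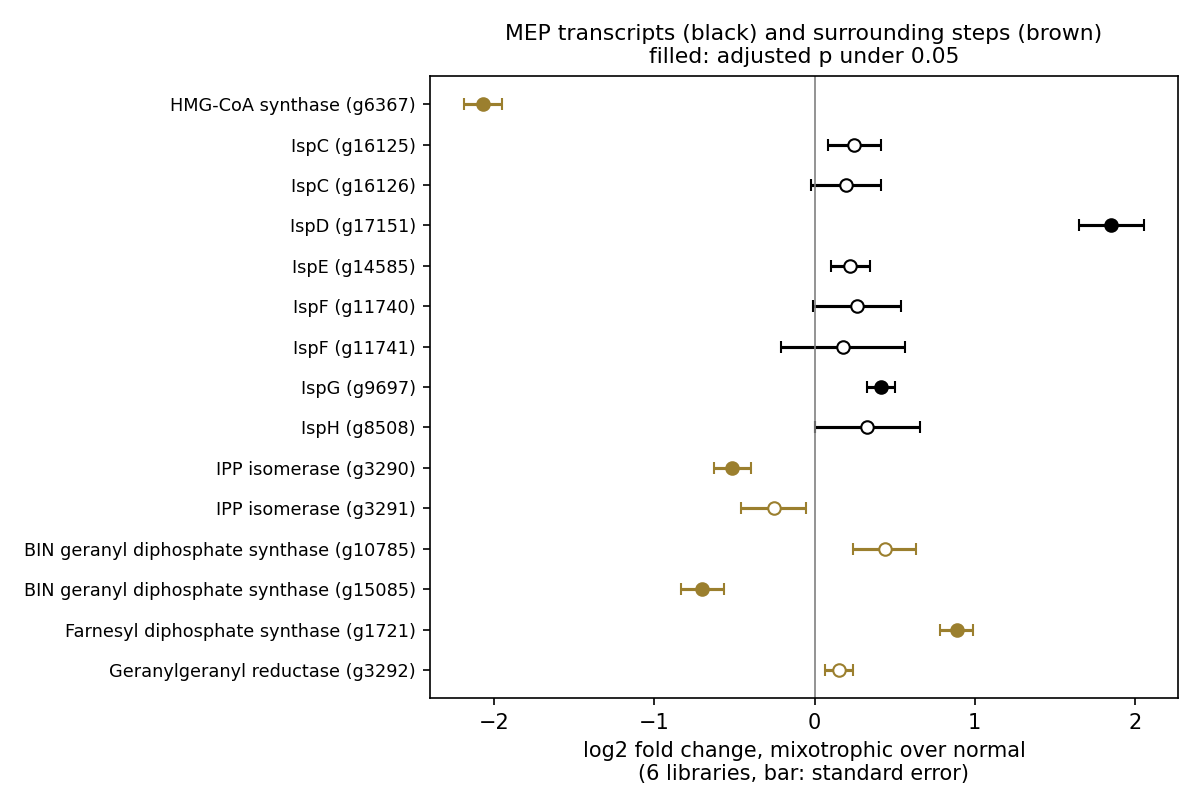
Log2 fold change of mixotrophic over normal over all 6 libraries, with its standard error, for the MEP transcripts (black) and for steps around them (brown). The brown points are the mevalonate step, IPP isomerase, prenyl transferases and geranylgeranyl reductase. Points are filled where the edgeR adjusted p was under 0.05. IspD at 1.85 and HMG-CoA synthase at -2.07 lie at the ends of the range.

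Carotenoid transcripts, which use the products of the pathway, numbered 45, of which 19 had no count and 25 were tested. Over all 6 libraries 2 were higher and 3 lower, with a median log2 fold change of -0.06, and over the 4 libraries 8 were higher and 8 lower of 24. These counts lie near the background of 13.3% higher and 15.2% lower over the 6 libraries, and 28.6% higher and 29.0% lower over the 4. The epsilon ring hydroxylase g7094, needed for lutein, rose by 0.93 on the log2 scale with a standard error of 0.15 (edgeR adjusted p = 0.00838). The carotenoid cleavage dioxygenase g8971 was lower, at 54.8, 59.1 and 49.7 CPM in mixotrophic replicates 1 to 3, against 108, 144 and 151 CPM in normal replicates 1 to 3 (edgeR adjusted p = 0.00401). IspG and IspH take electrons from ferredoxin in plastids. Of 8 transcripts classed as ferredoxin or ferredoxin reductase, 4 had no count and 2 were tested, with 0 called by edgeR over all 6 and over the 4 libraries, 0 at an unadjusted p under 0.05 and 0 by DESeq2. The tested ferredoxin g14956, whose best match is the chloroplast ferredoxin of *Chlamydomonas reinhardtii*, had 6.69, 4.19 and 5.06 CPM in mixotrophic replicates 1 to 3, against 4.42, 5.43 and 6.24 CPM in normal replicates 1 to 3, and its log2 fold change was -0.01 (edgeR adjusted p = 0.991).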

How the data were processed

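Total RNA was extracted with TRIzol, and directional libraries were sequenced. The authors pooled the reads for a Trinity assembly, predicted coding transcripts with AUGUSTUS, aligned each library to these transcripts (Subread) and summarised reads by featureCounts with its defaults. The labels list BWA and DESeq2 as processing tools, without versions. The deposited values are raw read counts per transcript, with functions assigned as MapMan classes. The version of the counting tool is not given, so it is not known whether reads that fit several transcripts equally were left out. Of the 18310 transcripts, 74.7% come from a component that yielded more than 1, and 4327 have no count. IspG and IspH carry no description in the table used here and were identified by their MapMan class and by the enzyme names in the study's supplement. The authors' fold changes, p-values and class enrichment were not used.

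Counts were analysed in R 4.3.3 with edgeR 4.0.16 (TMM scaling, filterByExpr with a minimum count of 10, two-sided quasi-likelihood test with Benjamini-Hochberg adjustment over all transcripts tested). The standard error was the absolute log2 fold change divided by the square root of F. DESeq2 1.42.0, RLE and upper quartile scaling, other filters, a replicate block, counts per component and leaving out libraries were tried as alternatives, and the fit was tested on simulated data. Total counts were 2535461 to 4444858 per library. Exact binomial and Poisson intervals (95%) cover counting error only, since reads carried no molecular identifiers. The sources describe independent repeats but not which libraries share a pre-culture, so p-values measure the spread between these libraries.

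Replicate numbers were checked for pairing: deviations from the condition mean correlated at 0.703, 0.625 and 0.544 for same-numbered libraries, all above 0.1, so the number was treated as a block where stated. Mixotrophic replicate 3 correlated more with normal replicate 2, at 0.683, and mixotrophic replicate 2 correlated at 0.514 with normal replicate 3. The check therefore cannot tell how replicates 2 and 3 pair, because replicate 1 stood apart in both conditions. The block over the 4 libraries rests on the replicate numbers alone. The named transcripts were the 8 members, the rest of their class with IPP isomerase g3291, the 2 transcripts with the smallest adjusted p of the mevalonate, carotenoid and ferredoxin lists, and the nearest profiles. The transcripts g3290, g10785, g15085 and g14954 were outside this rule and were named after their values were seen. The members and lists were chosen with earlier results of these data known.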

Additional observations from a re-analysis of the deposited data

How the results depend on the processing

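The log2 fold change of IspD kept its direction and its call under every alternative run, with a range of 1.69 to 2.02 when 1 library was left out. The number of the 8 MEP transcripts called higher was 1 with the replicate block over 6 libraries, 1 with a log2 fold change of at least 1 required as well, and 1 with that requirement over the 4 libraries, an alternative chosen after seeing the data. Leaving out 1 library gave 1 to 3 transcripts called higher. It was 3 without normal replicate 1, and 1 without any of the other 5. The share of all transcripts called was not computed for these fits, so the change in count cannot be set against a background.

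With the replicate block, IspG had a log2 fold change of 0.41 (edgeR adjusted p = 0.0839) over 6 libraries. The block changed no other call among the 8 transcripts. Leaving out 1 library gave 0.36 to 0.43 for IspG. IspC g16125 was called over the 4 libraries with edgeR (0.43), DESeq2 (0.44) and the block (0.43), and leaving out 1 library gave 0.15 to 0.40. IspF g11741 turned to -0.077 over the 4 libraries, to -0.086 with DESeq2 and to -0.13 with the block there, and leaving out 1 library gave -0.15 to 0.41. IspH was -0.0027 over the 4 libraries, and leaving out 1 library gave -0.017 to 0.57. The cause was not tested. Of 80 fold changes of the 8 transcripts under alternatives other than leaving out 1 library, 72 kept their direction and side of the threshold. The count called higher was 3 over the 4 libraries with edgeR, when 28.6% of all transcripts were called higher in that fit. It was also 3 there with DESeq2 and with the block, for which the share over all transcripts was not computed.

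IspF and the second IspC transcript had 15 to 53 counts per library. At their mean counts per condition, counting alone gives a coefficient of variation of 15.6% to 22.4%, and more in the libraries with the fewest counts. With 3 libraries per condition, the exact tests of ratios and shares cannot pass 0.05.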

Other observations

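Some transcripts around the pathway were nearly absent in replicate 1 of both conditions. A second geranylgeranyl reductase, g8225, had 0.863, 81.7 and 122 CPM in mixotrophic replicates 1 to 3, against 0.553, 119 and 84.7 CPM in normal replicates 1 to 3. The ferredoxin g10752 had 0, 33.5 and 45.5 CPM in mixotrophic replicates 1 to 3, against 0.276, 50.5 and 32.5 CPM in normal replicates 1 to 3. Its component holds no other transcript. Another ferredoxin, g14954, had 27 counts in normal replicate 2 and 0 in the other 5 libraries. None of the 8 MEP transcripts was in the group low in replicate 1 of both conditions, which held 878 of all 18310 transcripts.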
